A study of Mus musculus with 64 samples.

Results

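The late response of Roquin-deficient CD4 T cells is the net change of their transcripts after 4 h of renewed stimulation through the antigen receptor. The comparison sets the 4 libraries of Roquin-deficient cells restimulated for 4 h (DKO_4h) against the 4 libraries of the same cells without restimulation (DKO_0h). These are 8 of the 64 libraries of the study, chosen by their genotype and time labels and not by any measured value. Roquin-1 and Roquin-2, the products of Rc3h1 and Rc3h2, are RNA-binding proteins that recognise stem-loops in mRNAs of T cell activation and recruit deadenylation and decapping factors to them. Regnase-1, the product of Zc3h12a, is an endonuclease with many of the same targets. In T cells, engagement of CD3 and CD28 starts NFAT, AP-1 and NF-kB, and a late response of cytokines, growth and surface receptors follows the first wave of transcription factors.

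All cells were CD4 T cells from the spleens of C57BL/6J mice that carried Cd4-Cre-ERt2, a Cre recombinase under Cd4 control that acts when tamoxifen binds it. DKO cells were Rc3h1/2 fl/fl; Cd4-Cre-ERt2, and the reference cells (WT) carried Cd4-Cre-ERt2 alone. The deletion was induced in vitro with 4′-OH-tamoxifen, the cells were activated for 40 h under Th1 conditions with antibodies to CD3 and CD28, kept for 2 days in medium with IL-2, and restimulated with anti-CD3/28 or left untreated (0 h). The DKO libraries at 1 and 2 h and the WT libraries at 0 and 4 h serve as points of reference, with 4 libraries each. The labels do not give the exons between the loxP sites, the age of the mice, or whether each library of a group stands for its own mouse or culture. P-values therefore set a difference only against the spread between libraries, and that spread may be technical. In the limma tests it was estimated over all 64 libraries.

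Values are normalised read counts, that is, the authors' normalised counts after a further scaling by the trimmed mean of M values (TMM), on which 1 read was worth 1.06 to 1.11 at 0 h and 0.859 to 1.24 at 4 h in DKO cells. The 8 libraries held between 6781084 and 9759381 reads, and their 10 most abundant loci took 32.2 to 37.1% of them at 0 h and 28.3 to 34.9% at 4 h. The first library in the list at 0 h stood apart from the other 3 of its group (chi-square 24.0 to 38.1 per degree of freedom, against 8.81 to 15.1 among the others). The fourth library at 4 h stood apart likewise (21.0 to 28.1, against 8.87 to 12.7). Each log2 change is followed by its SE (n = 4 libraries in each group) and, where printed, by limma's p after Benjamini-Hochberg adjustment over all 16140 genes tested. A gene is said to have risen or fallen when that adjusted p was under 0.05. Bulk values cannot tell fewer cells of a type apart from less RNA per cell.

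The targeted genes carried reads in every DKO library, and why these reads remained was not tested. The counts cover whole genes, and the position of the deleted part is not given. The reads are therefore no check of the deletion. Rc3h1 was at 663, 493, 590.3 and 576 at 0 h and 635, 583, 631 and 621 at 4 h. Rc3h2 was at 763, 724, 863 and 858 at 0 h and 689.8, 804, 817 and 646 at 4 h. After TMM scaling neither separated the times: the exact 2-sided permutation test gave p = 0.3714 for Rc3h1 and 0.2857 for Rc3h2 (adjusted p = 0.3714 for both over 3 genes), where the smallest p that 4 against 4 libraries allow is 0.0286. On the deposited scaling the mean of Rc3h2 went from 958.6 to 726.0, with no overlap and the smallest exact permutation p (0.0286, adjusted p = 0.0857). Zc3h12a, the remaining gene of the Roquin and Regnase-1 pair, was at 298, 342, 321 and 357 at 0 h and 413, 366, 300.1 and 423 at 4 h (exact permutation p = 0.1714, adjusted p = 0.3714). Its values overlapped between 0 and 4 h, although its mean had been 1344 at 1 h and 1200.1 at 2 h.

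A total of 4558 genes rose (28.2% of those tested) and 4338 fell (26.9%) between 0 and 4 h, 55.1% together. The DKO counts of every gene list below are to be read against these shares. The change reached at least 4-fold in 767 of the risen and 932 of the fallen genes, and at least 16-fold in 84 and 76. On the authors' deposited scaling the split was 3359 higher to 5711 lower, and the median change of all genes was -0.30 on the log2 scale against -0.03 after TMM. Higher calls that held under all 5 scalings tried numbered 3359 (20.8%), and lower calls that did so numbered 4337 (26.9%). The median change was highest after TMM, and lay between -0.30 and -0.06 under the other scalings. These scalings therefore put only the higher calls to the test, and the lower calls held almost by construction. The summed T cell identity markers ranged over 18655 to 23974 at 0 h and 12667 to 17010 at 4 h, with 8 of 12 members lower (5 without both libraries that stand apart), among them Lck (-1.20) and Cd3d (-1.02). Of the 2 CD8 markers tested Cd8b1 rose (1.21), and of the 2 dendritic cell markers Zbtb46 rose (2.09), and the other member of each pair was without a call. Both sets were low. The CD8 markers summed to 53.0 to 68.0 at 0 h and 94.2 to 171.9 at 4 h. The dendritic cell markers summed to 10.8 to 29.6 and 56.1 to 74.6.

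**Figure D1:**
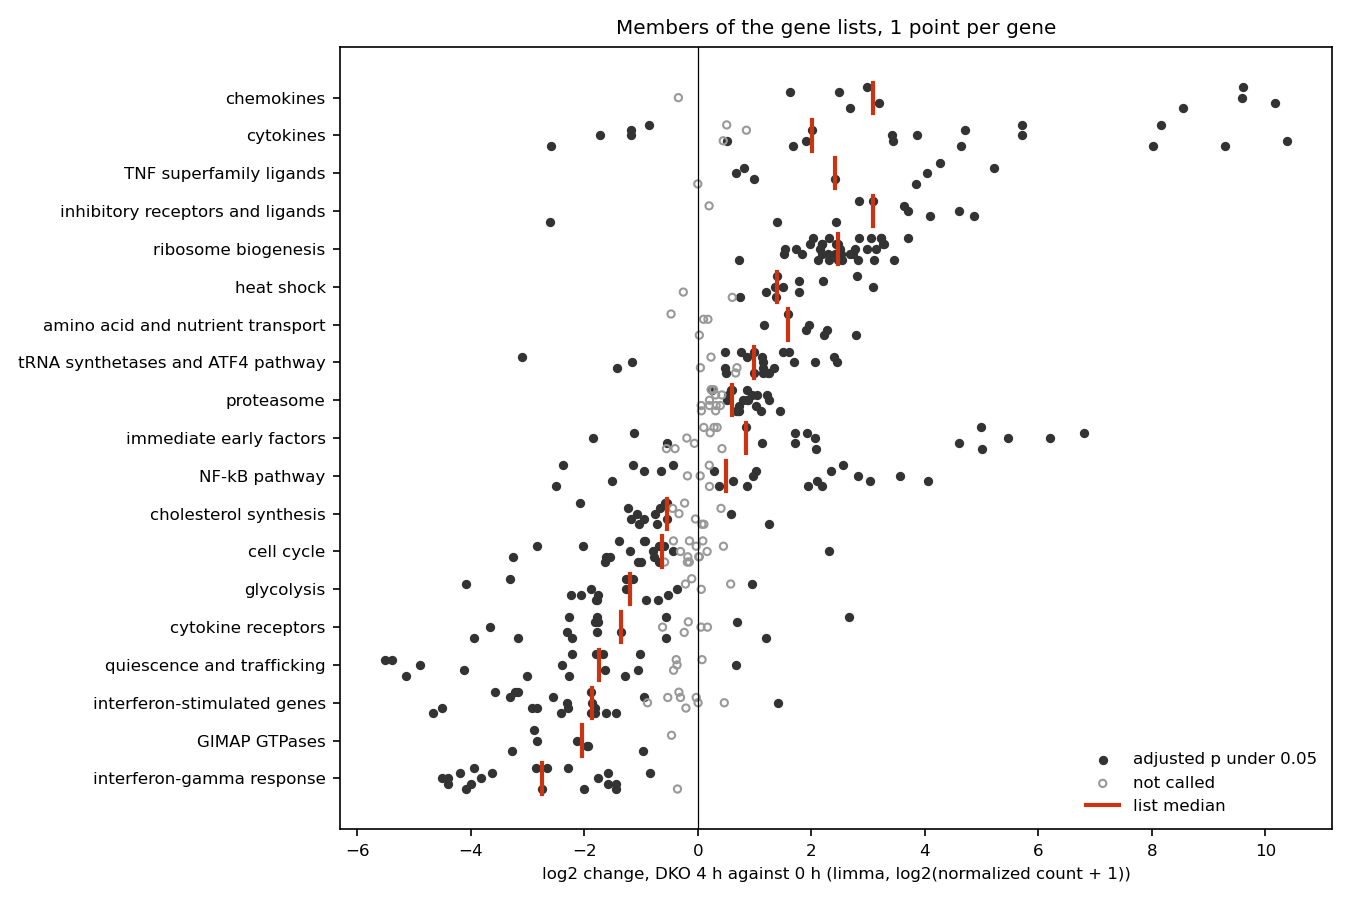
Log2 change from 0 to 4 h in DKO cells (horizontal) for every tested member of 19 gene lists, 1 point per gene, filled where the adjusted p was under 0.05, with a red bar at the list median. All 37 ribosome biogenesis genes lie to the right of 0, and 20 of 21 interferon-gamma response genes are filled points to the left.

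The transcripts that climbed furthest encode secreted signals. Over all genes tested, 51% had 2 groups that did not overlap, in either direction. Of the 12 rises chosen by size among them, 8 were cytokines or chemokines: Il3 10.38, Ccl3 10.16, Xcl1 9.60, Ccl4 9.58, Il2 9.30, Ccl1 8.55, Csf2 8.15 and Ifng 8.01 on the log2 scale. The stretches of 250 bases upstream of the annotated starts of the leading members are printed here from RefSeq (GRCm38.p6), because these genes went from almost no reads to high counts together. Capitals mark matches to the motifs searched on both strands, which were NFAT (GGAAAA, reverse TTTTCC), KLF/SP (GGGCGG, reverse CCGCCC), AP-1 (TGANTCA), EGR (GCGNGGGCG), FOXO (GTAAACA), ISRE (GAAA, any 2 bases, GAAA), an E-box (CACGTG) and NF-kB. Matches of NFAT and ISRE can overlap, as can those of KLF/SP and EGR. Ccl4 had no window in the RefSeq table.
Il3 (chr11:54267280-54267529, minus strand): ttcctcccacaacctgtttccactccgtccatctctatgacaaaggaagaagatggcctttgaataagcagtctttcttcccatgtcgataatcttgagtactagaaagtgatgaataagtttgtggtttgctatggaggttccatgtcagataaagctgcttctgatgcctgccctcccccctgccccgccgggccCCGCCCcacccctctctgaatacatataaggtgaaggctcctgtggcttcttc
Ccl3 (chr11:83649379-83649628, minus strand): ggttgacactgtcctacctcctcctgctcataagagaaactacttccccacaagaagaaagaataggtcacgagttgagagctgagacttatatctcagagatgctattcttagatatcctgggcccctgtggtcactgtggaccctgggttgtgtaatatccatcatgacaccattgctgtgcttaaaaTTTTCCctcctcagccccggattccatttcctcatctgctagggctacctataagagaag
Xcl1 (chr1:164935523-164935772, minus strand): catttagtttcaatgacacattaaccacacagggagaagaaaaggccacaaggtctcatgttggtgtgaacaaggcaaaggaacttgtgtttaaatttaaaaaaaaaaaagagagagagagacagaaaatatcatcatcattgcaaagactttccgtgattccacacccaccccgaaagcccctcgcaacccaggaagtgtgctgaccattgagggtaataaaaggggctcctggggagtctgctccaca
Il2 (chr3:37125955-37126204, minus strand): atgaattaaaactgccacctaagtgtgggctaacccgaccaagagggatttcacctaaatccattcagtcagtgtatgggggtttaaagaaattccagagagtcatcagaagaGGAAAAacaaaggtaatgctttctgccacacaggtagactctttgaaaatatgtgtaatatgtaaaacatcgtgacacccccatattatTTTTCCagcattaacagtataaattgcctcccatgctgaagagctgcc
Ccl1 (chr11:82179813-82180062, minus strand): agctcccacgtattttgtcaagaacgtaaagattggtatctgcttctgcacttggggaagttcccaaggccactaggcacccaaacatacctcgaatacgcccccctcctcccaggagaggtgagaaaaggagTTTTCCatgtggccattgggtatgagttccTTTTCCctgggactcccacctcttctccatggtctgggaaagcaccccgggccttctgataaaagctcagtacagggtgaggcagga

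Il2 held GGAAAA beginning 137 bases and TTTTCC beginning 48 bases before its start, Ccl1 held TTTTCC at 117 and at 87 bases, and Ccl3 held it at 60. The Il3 window held CCGCCC at 53 bases, and in Xcl1 none of the letters searched occurred. Over all 10704 tested genes with a window, 19% held the NFAT letters, against 7 of 20 cytokines (35%) and 3 of 7 chemokines (42.9%). Lists that mostly fell held them too: 7 of 21 interferon-stimulated (33.3%), 4 of 14 cholesterol synthesis (28.6%) and 4 of 17 quiescence and trafficking genes (23.5%). They were in 6 of 33 ribosome biogenesis genes (18.2%), 3 of 20 NF-kB pathway genes (15%) and 0 of 20 immediate early genes. The NF-kB motif was in 4.42% of all windows, in 4 of 20 cytokines (20%) and in 3 of 7 chemokines (42.9%). A match is a description of letters and not of binding.

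Il2, the T cell growth factor and a known target of these decay factors, was at 8.63, 4.45, 6.39 and 5.33 at 0 h and 3955, 2573, 4233 and 8902 at 4 h. Every restimulated library lay far above every resting one, and the log2 change was 9.30 ± 0.52 (adjusted p = 2e-21). Ifng, the effector cytokine of Th1 cells, was at 19.5, 57.7, 75.2 and 63.7 at 0 h and 11952, 9463, 18936 and 12236 at 4 h. Its groups did not overlap either, and the third library at 4 h was the highest (log2 change 8.01 ± 0.57, adjusted p = 2.1e-17). Csf2, which encodes the myeloid growth factor GM-CSF, was at 0, 0, 9.55 and 1.08 at 0 h and 471, 263, 1009.7 and 1149 at 4 h. Its log2 change was 8.15 ± 0.59 (adjusted p = 4.6e-17), again with no overlap.

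Il3, a growth factor for blood progenitors and mast cells, had 1 read in all at 0 h and 7895 at 4 h in DKO cells. That is a depth-corrected ratio of 7550 with a 95% exact interval of 1350 to 298000, which covers counting error only. Its values at 4 h were 1374, 579, 2212 and 3701. Il21, a helper cytokine for B cells, was at 1.1, 4.45, 3.15 and 4.24 at 0 h and 89.7, 89.97, 234 and 47.2 at 4 h, a log2 change of 4.63 ± 0.61 (adjusted p = 4e-09). The Th2 cytokines Il4, Il5 and Il13 also rose in these cells, which had been activated under Th1 conditions. Il13 was at 4.32, 2.18, 8.47 and 3.16 at 0 h and 213, 119.9, 691 and 275 at 4 h and its log2 change was 5.71 ± 0.39 (adjusted p = 1.7e-18). The third library at 4 h was the highest for Il13, Il4 and Ifng.

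Of 23 cytokine genes tested, 15 rose and 5 fell, with a median log2 change of 2.01. That is 65.2% higher, against 28.2% of all genes tested, and 21.7% lower, not above the 26.9% of all. Il17a and Il17f had no read at 0 h, and the median was the same with their changes set to the least that 3 reads over the group would allow. The members that fell were Osm (-2.58), Ebi3 (-1.72), Lta (-1.19), Ltb (-1.18) and Lif (-0.86, adjusted p = 0.068 without the second library at 0 h). Lta and Ltb form the lymphotoxins that organise lymphoid tissue, and Ebi3 is a subunit of IL-27 and IL-35. The rises of Tgfb1 and Il9 were called under some of the 5 scalings. In WT cells 16 of the 23 rose and 3 fell, where 24.6% of all genes tested rose and 27.1% fell.

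**Figure D2:**
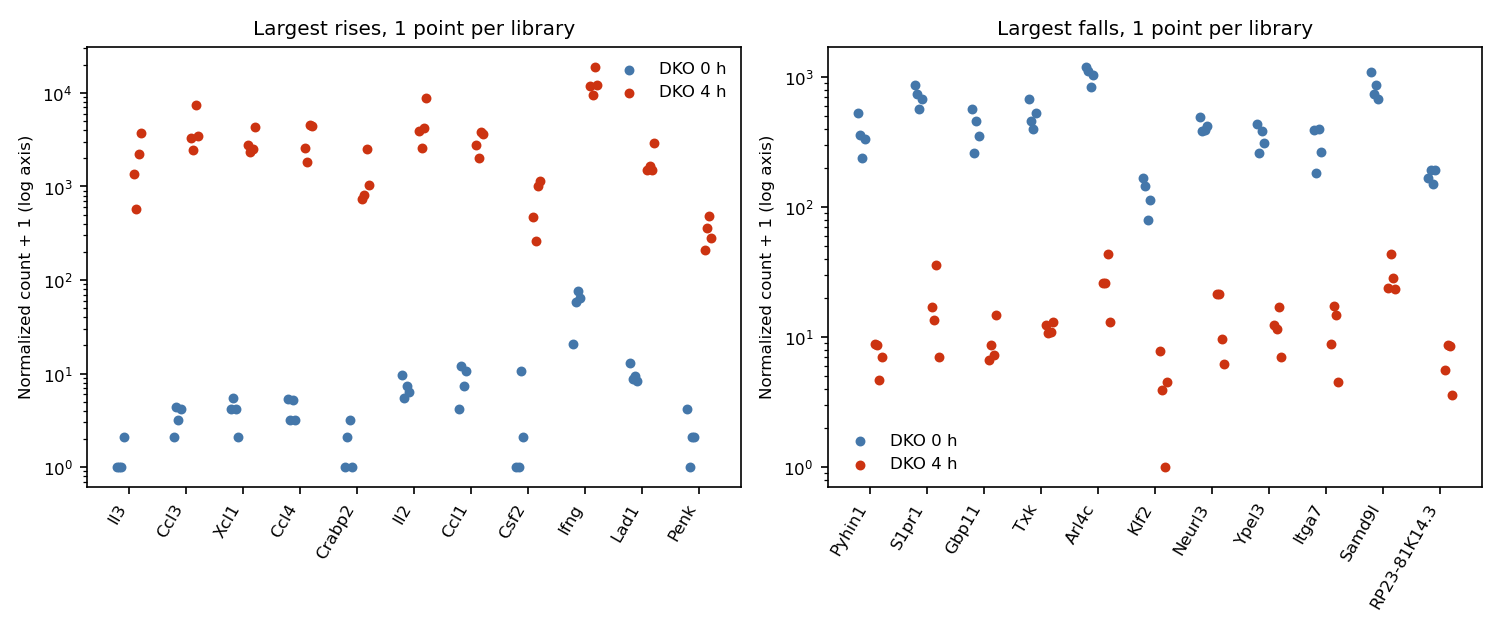
Normalised count + 1 on a log axis in each of the 4 DKO libraries at 0 h (blue) and the 4 at 4 h (red), for 11 of the 12 largest rises (left) and 11 of the 12 largest falls (right). The groups do not overlap for any gene shown, and Ifng reaches the highest counts, 9463 to 18936 at 4 h.

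Of 10 chemokine genes tested 9 rose. Ccl3, which encodes an attractant for CCR1 bearing cells, was at 1.1, 3.36, 2.16 and 3.16 at 0 h and 3288, 2437, 7446 and 3499 at 4 h. Its log2 change was 10.16 ± 0.47 (adjusted p = 2.6e-24), and no library at 0 h came near one at 4 h. Xcl1, the ligand of XCR1 on cross-presenting dendritic cells, was at 3.21, 4.45, 3.15 and 1.08 at 0 h and 2792, 2362, 2538 and 4279 at 4 h. It rose by 9.60 ± 0.49 on the log2 scale (adjusted p = 6.1e-23). Ccl5, an attractant of T cells, was at 52.97, 64.3, 134 and 55.2 at 0 h and 148, 121, 489 and 274 at 4 h (1.63 ± 0.46). Cxcl10, which interferon-gamma is known to induce, was the member without a call (6.51, 14.4, 4.24 and 15.9 at 0 h and 5.72, 14.5, 7.5 and 3.48 at 4 h). Over the list the median change was 3.09, or 3.3 with Ccl20, which had no read at 0 h, at its bound.

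Membrane-bound ligands of the TNF superfamily rose in 8 of 9 cases, with a median of 2.42. Cd70, the ligand of the costimulatory receptor CD27, was at 3.21, 3.36, 8.47 and 4.24 at 0 h and 135, 144, 409.6 and 216 at 4 h, a log2 change of 5.22 ± 0.49 (adjusted p = 9e-14). Tnfsf11, which encodes RANKL, rose by 4.27 ± 0.33 and Fasl, the death ligand, by 2.42 ± 0.38. Cd40lg and Tnfsf8 had been far higher before: Cd40lg averaged 10093 at 1 h and 11152 at 2 h, against 1118 ± 360.0 at 0 h and 1728 ± 216 at 4 h (SD, n = 4). Its log2 change from 0 to 4 h was 0.67 ± 0.26 (adjusted p = 0.022), and was called under some of the 5 scalings (adjusted p = 0.13 without the second library at 0 h). Other rises of great size stood outside the signalling lists. Penk, the enkephalin precursor, was at 3.21, 0, 1.08 and 1.08 at 0 h and 209.9, 355, 483 and 281 at 4 h. Crabp2, a retinoic acid carrier, had 3 reads at 0 h and 4738 at 4 h (ratio 1510, 95% exact interval 516 to 7320). Lad1, an anchoring filament protein gene, rose by 7.54 ± 0.63 on the log2 scale.

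Most genes of the first wave of transcription factors stood lower at 4 h than at 2 h. Of 25 immediate early genes tested, 23 were lower at 4 h than at 2 h, where 18.3% of all genes tested were. Both counts are after TMM scaling, and over all genes tested 9.51% were lower under all 5 scalings. The comparison with 2 h shares the 4 h libraries with the one against 0 h. Against 0 h, 13 still stood higher, 3 lower (5 on the deposited scaling), and 9 were without a call. Fos, a subunit of AP-1, averaged 42.1 at 0 h, 4210.3 at 1 h, 129 at 2 h and 31.6 at 4 h. Egr2 and Egr3, zinc-finger factors tied to anergy and cytokine control, kept part of their rise. Egr2 was at 6.51, 8.9, 42.4 and 16.97 at 0 h and 1582, 1433, 2273 and 1773 at 4 h, a log2 change of 6.81 ± 0.34 (adjusted p = 9.8e-24). Nr4a3, an orphan nuclear receptor induced by the T cell receptor, was at 109, 72.2, 233 and 114 at 0 h and 5557, 4435, 5079.5 and 6569.8 at 4 h, a log2 change of 5.47 ± 0.25 (adjusted p = 1.8e-25). Btg2 (-1.85), Klf6 (-1.12) and Jund (-0.55) ended below their starting level.

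**Figure D3:**
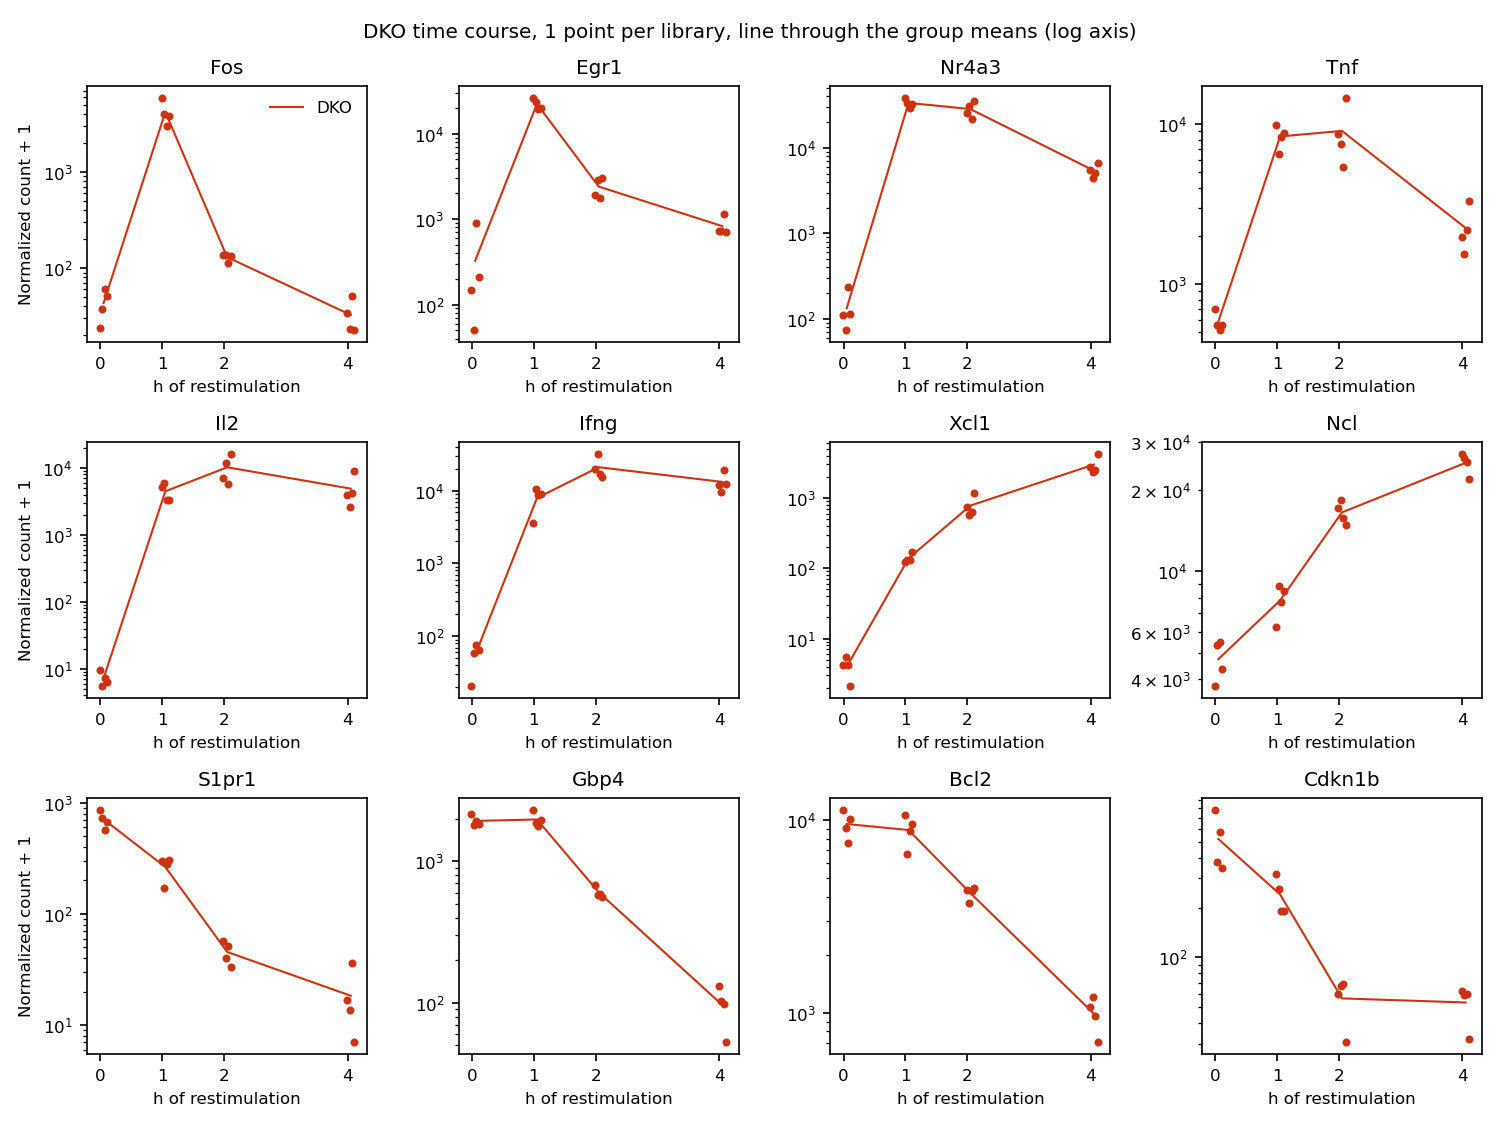
Normalised count + 1 (log axis) at 0, 1, 2 and 4 h of restimulation in DKO cells for 12 genes, 1 point per library, with a line through the group means. Fos and Egr1 are highest at 1 h, Xcl1 and Ncl are highest at 4 h, and S1pr1, Gbp4 and Bcl2 are lowest at 4 h.

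Within the NF-kB pathway 15 of 26 genes rose (57.7%, against 28.2% of all genes tested). A further 7 fell (26.9%, which is also the share of all genes tested). The risers included the subunits Rel (2.82), Nfkb2 (3.04) and Relb (2.56) and the inhibitors Nfkbia (2.19), Nfkbie (2.34) and Nfkbid (3.57). Tnfaip3, the deubiquitinase A20 that terminates NF-kB signalling, was at 241, 92.1, 388 and 137 at 0 h and 3042, 2759, 2824 and 3820.1 at 4 h, a log2 change of 4.05 ± 0.29 (adjusted p = 1.3e-17). Other members went the other way. Cyld, a deubiquitinase that restrains NF-kB, was at 1292, 1078, 1365 and 1184 at 0 h and 475, 557, 513 and 249 at 4 h, a log2 change of -1.51 ± 0.16 (adjusted p = 9.3e-12). Malt1 (-0.94), Bcl3 (-2.49) and Nfkbiz (-1.15) fell as well. The NF-kB letters were in 9 of 20 promoter windows of this list (45%), against 4.42% of all.

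mRNAs that Roquin or Regnase-1 are known to bind moved in both directions. Of 16 tested, 9 rose (56.2%, against 28.2% of all genes tested) and 5 fell (31.2%, near the 26.9% of all). Their median was 1.5, and these calls held under all 5 scalings. In WT cells 10 rose and 2 fell. Icos, the costimulatory receptor whose mRNA is the textbook Roquin target (ENSMUSG00000026009, chr1:60977927-61000320, plus strand in GRCm38), was at 4605, 4934, 7567 and 5144 at 0 h and 2243, 2572, 1911 and 524 at 4 h. No 4 h library reached a 0 h library, and the fourth at 4 h was the lowest (log2 change -1.81 ± 0.40, adjusted p = 9.8e-05). In WT cells Icos averaged 836 ± 289 at 0 h and 752 ± 218 at 4 h (SD, n = 4). The DKO change minus the WT change was -1.66 ± 0.56 and did not pass the test (adjusted p = 0.17, and 0.022 on the deposited scaling).

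Ctla4, which encodes an inhibitory receptor for B7 ligands, was at 4219, 1734, 5791 and 2172 at 0 h and 515, 542, 906 and 269 at 4 h. No library of 1 group reached the other group, and the first and the third libraries at 0 h were well above the other pair (log2 change -2.60 ± 0.42, adjusted p = 5e-07). Nfkbiz (-1.15) and Il2ra (-0.57) also fell. Among the risers, Tnfrsf4, which encodes the costimulatory receptor OX40, was at 1305, 1440.1, 3348 and 1460.4 at 0 h and 5619, 4482, 6103 and 4997 at 4 h, a log2 change of 1.60 ± 0.30 (adjusted p = 7.4e-06). Its change minus that in WT cells was -1.52 ± 0.42, with an adjusted p of 0.067 that missed the threshold and of 0.0037 on the deposited scaling. Irf4, a factor for effector differentiation, was at 1256, 1409, 2252 and 1542 at 0 h and 5226, 4814, 3630.4 and 3294 at 4 h. It rose by 1.40 ± 0.21 in DKO and 2.55 ± 0.21 in WT cells, and the difference of -1.15 ± 0.29 passed the test (adjusted p = 0.041), a call lost without any of 10 of the 16 libraries (adjusted p up to 0.16). Tnf and Rel had both been higher at 2 h, at means of 9070.3 and 5565, than at 4 h, at 2242 and 2311.

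Inhibitory receptors and ligands rose in 9 of 11 cases (median 3.08), with Ctla4 the member that fell and Cd5 the member without a call. Pdcd1, which encodes PD-1, was at 29.2, 23.3, 44.5 and 21.2 at 0 h and 789.6, 715, 1114 and 844 at 4 h, a log2 change of 4.86 ± 0.25 (adjusted p = 8.1e-24). Lag3, a receptor for MHC class II, was at 10.8, 15.5, 78.5 and 26.5 at 0 h and 322, 305, 591 and 210.4 at 4 h and rose by 3.70 ± 0.69. Cd200 (4.60), Cd160 (4.10), Havcr2 (3.63), Tigit (3.08) and the PD-1 ligand gene Cd274 (2.84) moved the same way. Of 12 costimulatory receptors, Tnfrsf9 (2.34), Tnfrsf4 and Slamf1 (1.41) rose, and Tnfrsf9 overlaps Camta1 on the opposite strand. Icos, Cd28 (-1.21), Tnfrsf25 (-0.82), Tnfrsf1b (-0.77) and Cd2 (-0.59) fell, and 4 were without a call. That is 25% higher and 41.7% lower, against 28.2 and 26.9% over all genes tested. Without both libraries that stand apart 3 of the 12 fell, and Cd28 (adjusted p = 0.081) and Cd2 (adjusted p = 0.082) did not pass.

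Genes of resting, circulating T cells mostly fell. Of 20 quiescence and trafficking genes, 15 fell and 1 rose (Bach2, on some scalings), with a median of -1.73. S1pr1, the receptor with which lymphocytes leave tissue along sphingosine-1-phosphate (ENSMUSG00000045092, chr3:115710433-115715072, minus strand), was at 866, 734, 564 and 677 at 0 h and 15.9, 12.6, 34.9 and 5.97 at 4 h. Every library at 4 h lay below every library at 0 h, a log2 change of -5.50 ± 0.41 (adjusted p = 5.1e-17). Klf2, the factor that maintains S1pr1, was at 165, 144, 78.5 and 112 at 0 h and 6.76, 2.92, 0 and 3.48 at 4 h. Its log2 change was -5.15 ± 0.37 (adjusted p = 5.2e-18), also without overlap. Il7r, the IL-7 receptor chain, fell by 2.26, Tcf7 by 1.67 and Foxo1 by 1.64 on the log2 scale. Ccr7, the lymph node homing receptor, was lowest at 2 h (135 on average), and stood at 484 ± 72.8 at 4 h against 1710.0 ± 455 at 0 h (SD, n = 4).

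Other large falls by size included Txk, a Tec-family kinase gene, at 682, 460.5, 396 and 531 at 0 h and 11.3, 9.68, 9.97 and 12.03 at 4 h (log2 change -5.44 ± 0.26). Arl4c, which encodes an ARF-like GTPase, was at 1191, 1111, 833 and 1042 at 0 h and 24.97, 25.1, 42.4 and 12.03 at 4 h (-5.38 ± 0.27). In both the groups were clear of each other. Pyhin1 (-5.62), Gbp11 (ENSMUSG00000098049, -5.46), Neurl3 (-5.03), Ypel3 (-4.89), Itga7 (-4.88) and Samd9l (-4.85) were also in the set, together with RP23-81K14.3 (-4.82), which lies opposite Kbtbd11 so that its reads cannot be assigned without a strand setting.

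Interferon-response transcripts fell in the same 4 h in which Ifng rose. Of 21 interferon-gamma response genes tested, 20 fell, with a median of -2.74, and in WT cells 19 fell. Iigp1, an immunity-related GTPase gene, was at 1015, 991, 535 and 1014 at 0 h and 57.8, 84.1, 53.6 and 30.03 at 4 h, a log2 change of -4.0 ± 0.28 (adjusted p = 1.8e-18). Irf1, which carries interferon signals to MHC and GTPase genes, was at 1239, 1232, 899.9 and 1048 at 0 h and 170.2, 197, 147 and 107 at 4 h (-2.84 ± 0.26). Among guanylate-binding genes, Gbp4 (-4.39), Gbp8 (-4.39) and Gbp9 (-4.50) share a locus and similar sequence, so their separate values are uncertain. Gbp4 averaged 1974 at 1 h, 603 at 2 h and 95.5 at 4 h from a start of 1929.

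Of 29 interferon-stimulated genes, 20 fell and 1 rose (median -1.86). Xaf1, a proapoptotic interferon-induced gene, was at 139, 99.9, 80.5 and 122 at 0 h and 2.29, 1.01, 4.93 and 7.76 at 4 h (-4.66 ± 0.47, adjusted p = 1.2e-12). Ddx58, the RNA sensor RIG-I, was at 449, 415, 228 and 361 at 0 h and 14.8, 13.5, 13.7 and 16.3 at 4 h (-4.51 ± 0.24). Its relative Ifih1, the sensor MDA5, was the single riser (1.42 ± 0.30). Stat2 (-2.31), which transmits interferon signals, was lower. Irf7 (-3.31) shares reads with the overlapping Phrf1. The ISRE letters were present in 10 of 21 promoter windows of this list (47.6%), against 2.63% of all windows. Among 8 GIMAP GTPases, which support lymphocyte survival, 7 fell (median -2.04), led by Gimap6 (-2.88) and Gimap4 (-2.83). Gimap7 (-3.28) overlaps another locus.

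Receptors for cytokines and chemokines were mostly lower. Of 21 cytokine receptor genes 13 fell and 3 rose, and of 13 chemokine receptor genes 8 fell and 1 rose. Il10ra, the ligand-binding chain for IL-10, was at 891, 647, 1232 and 752 at 0 h and 57.8, 96.7, 122 and 29.2 at 4 h (-3.65 ± 0.44, adjusted p = 4.6e-10). Ifngr1, the ligand-binding chain for interferon-gamma, was at 1309, 1045, 1350.3 and 925 at 0 h and 129, 132, 134 and 113 at 4 h (-3.16 ± 0.15). Il2rb (-2.31) fell, while Il2rg, the common chain shared by several cytokine receptors, was without a call (1734, 1381, 1185 and 1367 at 0 h and 1672, 1536, 1399 and 1728 at 4 h). Risers were Il1rl1, the IL-33 receptor (2.66 ± 0.85), Il15ra (1.20) and, on some scalings, Il12rb1. Cxcr4 (-3.24), Ccr2 (-2.07) and Cxcr3 (-1.26) fell, and Ccr8, a receptor for CCL1, rose (1.83 ± 0.32).

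Survival and death genes of the BCL2 family and Fas were split, with 5 of 15 higher and 5 lower (33.3% each way, near the 28.2 and 26.9% over all genes tested). Bcl2 itself was at 11324, 9046, 7607 and 10169 at 0 h and 1076, 1203, 966 and 700.1 at 4 h, a log2 change of -3.28 ± 0.16 (adjusted p = 5.6e-25). Its relative Bcl2a1b, encoding the antiapoptotic A1, was at 33.5, 17.7, 34.96 and 28.7 at 0 h and 1054, 853, 1109 and 1352 at 4 h (5.23 ± 0.27). Bcl2a1 copies are nearly identical, so reads may be split between them. Of the proapoptotic BH3-only genes, Bmf (-4.16) and Bbc3 (-1.60) fell and Bcl2l11, which encodes BIM, rose (0.88).

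Ribosome biogenesis moved in a single direction. All 37 ribosome biogenesis genes tested rose, with a median of 2.48, under all 5 scalings, and all 37 rose in WT cells too (median 1.99). Ncl, which encodes nucleolin, was at 3762, 5358, 5507 and 4349 at 0 h and 27196, 26150.0, 25341 and 21898 at 4 h, a log2 change of 2.42 ± 0.12 (adjusted p = 2.3e-24). Its means of 7816 at 1 h and 16511 at 2 h lay between. Polr1b, which encodes a core subunit of RNA polymerase I, was at 89.7, 108, 58.3 and 78.6 at 0 h and 1107, 994, 992 and 1201 at 4 h (3.70 ± 0.21). Grwd1 (3.45), Nolc1 (3.28) and Nop16 (3.24) were the next largest, apart from Rrp9, which overlaps a neighbour. The smallest was Polr1c (0.73 ± 0.13, adjusted p = 3.8e-06). Of 31 ribosomal protein genes 23 rose, with a list median of 0.49, and 10 of these calls held under all 5 scalings.

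Myc, the factor known to drive ribosome and amino acid genes, was at 1328, 1528, 2384 and 1676 at 0 h and 7000.0, 6360.3, 6481 and 5908 at 4 h (1.93 ± 0.18, adjusted p = 7.5e-14). The MYC network list, its partners and antagonists included, was mixed, with 4 of 12 higher (33.3%) and 5 lower (41.7%). Over all genes tested 28.2% were higher and 26.9% lower. Of its antagonists, Mnt (0.84) and Mga (1.06) rose, and those of the MXD family fell. Mxd4 was at 720.5, 302, 513 and 396 at 0 h and 17.1, 21.3, 22.4 and 12.9 at 4 h (-4.59 ± 0.27), and Mxd1 (-2.92) and Mxi1 (-1.78) followed. Mxd3 (-4.03) lies opposite the far more abundant Prelid1, so its reads cannot be assigned without a strand setting. Amino acid transport genes rose in 7 of 11 cases (median 1.59). Slc7a5, the large neutral amino acid transporter, was at 396, 506, 588 and 501 at 0 h and 1956, 1804, 1846 and 1824 at 4 h (1.91 ± 0.15). Slc1a5, the glutamine transporter, went from 432 ± 38.4 to 2101 ± 277 (SD, n = 4). Of 27 tRNA synthetase and ATF4 pathway genes 20 rose and 3 fell. Xpot, the tRNA exporter (2.45 ± 0.13), and Asns, asparagine synthetase (2.39 ± 0.34), led the risers. Trib3, an inhibitor of that pathway, fell (-3.10 ± 0.42).

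Protein folding and turnover genes rose along with them. Of 13 heat shock genes 11 rose, with a median of 1.39. Hsph1, a nucleotide exchange factor for HSP70, was at 251, 392, 313 and 295 at 0 h and 2364, 2289, 2121 and 1922 at 4 h (2.81 ± 0.16, adjusted p = 6.9e-22). The mitochondrial chaperonins Hspd1 (3.09) and Hspe1 (2.20) share a bidirectional locus and overlap. Of 31 proteasome genes 20 rose (14 under all 5 scalings), with a median of 0.61. Psmd7, a lid subunit, was at 355, 516, 292 and 416 at 0 h and 1233, 1052, 1025 and 951 at 4 h (1.45 ± 0.16).

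Glycolysis genes went the other way, with 15 of 20 lower and 1 higher (median -1.2). Slc16a3, the lactate exporter MCT4, was at 804, 336, 727 and 392 at 0 h and 27.3, 29.96, 26.1 and 37.8 at 4 h, a log2 change of -4.09 ± 0.43 (adjusted p = 5.5e-12). Pdk1, the kinase that shuts pyruvate dehydrogenase, was at 2496, 1264, 2448 and 1583 at 0 h and 234, 194, 199 and 138 at 4 h (-3.31 ± 0.26). Tpi1 (-2.24) and Hk1 (-1.88) fell, Pfkfb3, which makes the activator of phosphofructokinase, rose (0.96 ± 0.21), and 4 members were without a call. Cell cycle genes fell in 18 of 32 cases and rose in 1. Cdkn1b, the inhibitor p27, was at 783, 377, 571 and 347 at 0 h and 61.3, 58, 58.5 and 30.9 at 4 h (-3.26 ± 0.28, adjusted p = 7.9e-15), and mitotic genes fell beside this brake, such as Mki67 (-1.63), Top2a (-1.62) and Ccnb2 (-2.03). Ccnd2, a cyclin of the G1 phase, was the riser (2.30 ± 0.13).

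Most of this response was also found in WT cells: 3674 genes rose and 3690 fell in both genotypes. The DKO change differed from the WT change in 132 genes (0.818% of those tested), 79 upward (0.489%) and 53 downward (0.328%). On the deposited scaling the numbers were 8 upward and 837 downward. Under all 5 scalings 53 downward differences were called (0.328%) and 7 upward (0.0434%). These counts cannot rank the 2 directions. TMM gave the highest median difference over all genes (0.065), and every other scaling a lower one (-0.303 to 0.026). Downward calls made after TMM therefore met no scaling that worked against them. Of the 132, 47 rose in both genotypes, 22 fell in both, 35 were called in DKO cells and not in WT cells, 23 in WT cells and not in DKO cells, and 5 moved in opposite directions. Leaving out a single library moved these counts by over 1.5 times in several cases. The upward count was 24 to 43 without the third DKO library at 0 h (33), the first (34), the second (42) or the third (34) DKO library at 4 h, the first (43) or the third (24) WT library at 0 h, or the first (29), the second (40) or the fourth (41) WT library at 4 h. The downward count was 25 without the third DKO library at 0 h, 30 without the first WT library at 0 h and 33 without the first WT library at 4 h. Without the fourth WT library at 0 h the counts were 252 upward and 93 downward, and without both DKO libraries that stand apart 76 upward and 30 downward. Of 31 genes named here with a called difference, 14 were called whichever of the 16 libraries was left out.

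Of the 53 genes with a downward difference, 52 were above WT at 0 h, with a median of 1.24 on the log2 scale, and 28 were above WT at 4 h, with a median of 0.0. Of the 79 with an upward difference, 3 were above WT at 0 h (median -0.39) and 77 at 4 h (median 0.34). These are descriptions with no test, since the gaps at both times make up the difference that chose the genes. Il9r, the IL-9 receptor chain (ENSMUSG00000020279, chr11:32187541-32200279, minus strand), gave the largest difference. It was at 85.3, 57.7, 113 and 36.1 in DKO libraries at 0 h and at 2.29, 4.84, 6.27 and 1.69 at 4 h, and at 1.18, 2.35, 0 and 6.09 and 2.42, 2.31, 2.17 and 0.933 in WT libraries. Among these 16 libraries the 4 DKO libraries at 0 h stood above all others, and the difference was -4.06 ± 0.78 (adjusted p = 0.0025).

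Zbtb32, a repressor of T cell activation genes, was at 83.2, 132, 343 and 169 at 0 h and 1627, 1315, 1870.0 and 1609 at 4 h in DKO libraries. In WT libraries it was at 10.7, 8.22, 8.98 and 18.3 and 969, 1044, 1260.3 and 1169. It rose in both, and by less in DKO cells, from a higher start (difference -3.21 ± 0.72, adjusted p = 0.018). Tnfsf14, the ligand LIGHT, went from 95.8 ± 42.8 to 1283 ± 306 in DKO and from 10.9 ± 1.74 to 998 ± 178 in WT cells (SD, n = 4). That difference was -2.55 ± 0.37 (adjusted p = 2.9e-05). Pou2f2, the octamer factor OCT2 (-2.01 ± 0.28, adjusted p = 1.9e-05), Pdzk1ip1 (-2.75 ± 0.57) and Phlda1 (-2.22 ± 0.55) showed the same form, a smaller rise in DKO cells. Lzts1 (-2.20 ± 0.52) and Pkhd1l1 (-2.42 ± 0.59) fell further in DKO cells. RP24-312B12.1 (-2.56) and St6galnac2 (-2.18), which overlaps 1810032O08Rik, complete the 10 named by size. The calls of Zbtb32, Lzts1, Pkhd1l1 and Phlda1 were lost without 1, 5, 9 and 10 of the 16 libraries, with adjusted p up to 0.074, 0.091, 0.084 and 0.097. With limma voom on whole reads, Zbtb32 had an adjusted p of 0.31, Pdzk1ip1 of 0.43, Tnfsf14 of 0.074 and Il9r of 0.062.

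**Figure D4:**
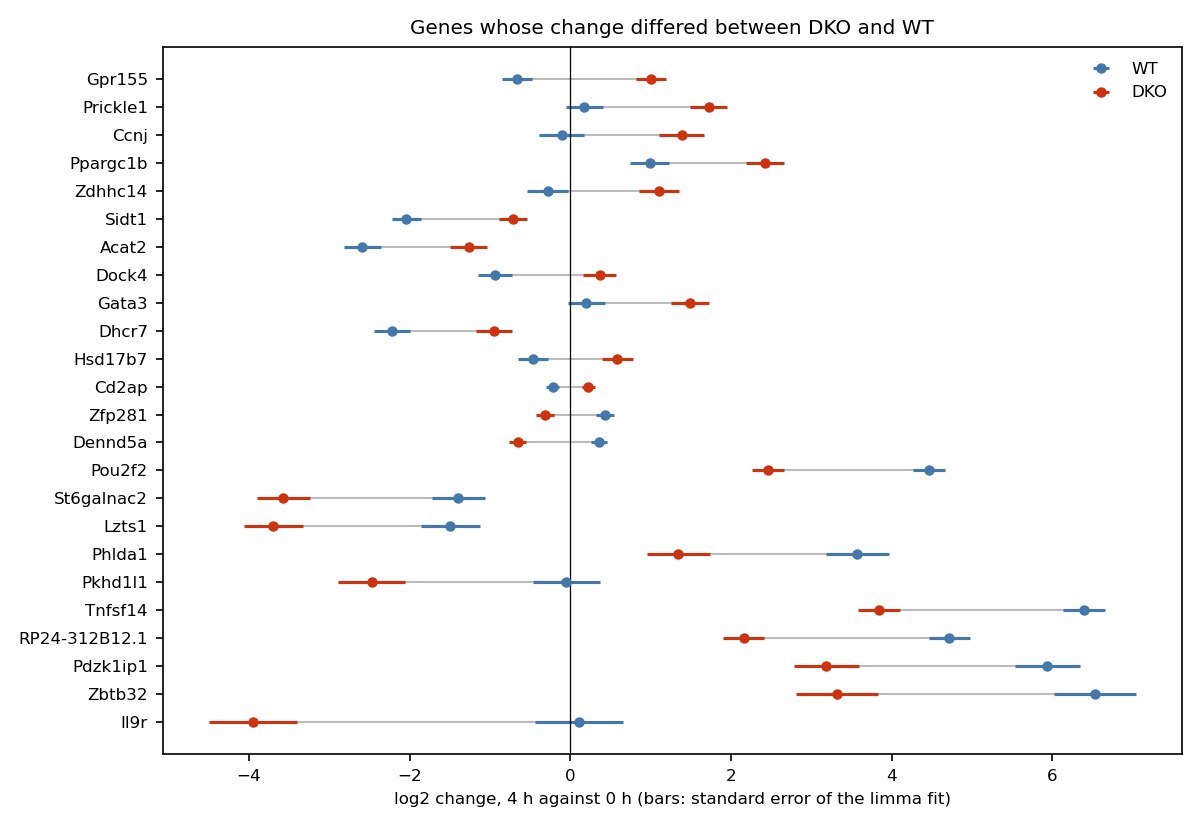
Log2 change from 0 to 4 h in WT (blue) and DKO cells (red) for the genes named for their difference, with bars for the standard error of the fit and a grey line joining the pair. Il9r falls in DKO cells and stays near 0 in WT cells, while Zbtb32, Pdzk1ip1, Tnfsf14, Phlda1 and Pou2f2 lie to the right of 0 in both, with the DKO point nearer to 0.

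Upward differences were smaller, and fewer of them were called under all 5 scalings. Gpr155, a lysosomal cholesterol sensor gene, was at 29.2, 34.4, 38.2 and 42.5 and then 82.8, 67.7, 82.1 and 60.96 in DKO libraries. In WT libraries it went from 59.7, 72.6, 61.2 and 54.9 to 51.5, 35.05, 38.7 and 31.7. It rose in DKO cells and fell in WT cells, a difference of 1.67 ± 0.27 (adjusted p = 0.00014) called under all 5 scalings. Prickle1, a planar polarity gene (1.55 ± 0.32, adjusted p = 0.0075), and Sidt1, which encodes a multipass membrane protein (1.33 ± 0.25, adjusted p = 0.0018), were also called under all 5. Gata3, the master factor of Th2 cells, was at 928, 474, 800.2 and 436 at 0 h and 1763, 1625, 2148 and 1551 at 4 h in DKO libraries and at 518, 529, 703 and 853 and 738, 751, 962 and 533 in WT libraries. Its difference of 1.29 ± 0.33 (adjusted p = 0.039) was called under 2 of 5 scalings, and the call was lost without any of 10 of the 16 libraries (adjusted p up to 0.12). Ccnj (1.5), Ppargc1b (1.43), Zdhhc14 (1.38) and Dock4 (1.30) were likewise called under some of the 5. The Ccnj call was lost without any of 12 of the 16 libraries (adjusted p up to 0.21), that of Zdhhc14 without any of 10 of the 16 libraries (adjusted p up to 0.14) and that of Ppargc1b without any of 4 of the 16 libraries (adjusted p up to 0.082). Dock4 itself changed by 0.36 ± 0.21 in DKO cells, which was no call.

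Cholesterol synthesis genes differed in count between the genotypes: 12 of 21 fell and 2 rose in DKO cells, with a median of -0.54, against 20 lower in WT cells, with a median of -1.3. The difference itself passed the test for 4 members, among them Dhcr7 (1.27 ± 0.32), Hsd17b7 (1.05 ± 0.27) and Sqle (1.02 ± 0.27), with adjusted p of 0.039, 0.039 and 0.046. Sqle, which makes squalene epoxide, was at 389.9, 332, 408 and 378 at 0 h and 579.8, 447, 461 and 521 at 4 h in DKO libraries, and at 548, 552, 694 and 454 and 316, 376, 290.5 and 500.0 in WT libraries. The sterol-linked Acat2, an acetyl-CoA acetyltransferase, gave a difference of 1.32 ± 0.32 (adjusted p = 0.029). None of these differences was called under all 5 scalings, and each call was lost without some of the 16 libraries, Sqle without 14 of them (adjusted p up to 0.13). Idi1, an isomerase of the same pathway, rose in DKO cells (1.25 ± 0.30), and its difference from WT was 1.00 ± 0.43 without a call (adjusted p = 0.34).

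**Figure D5:**
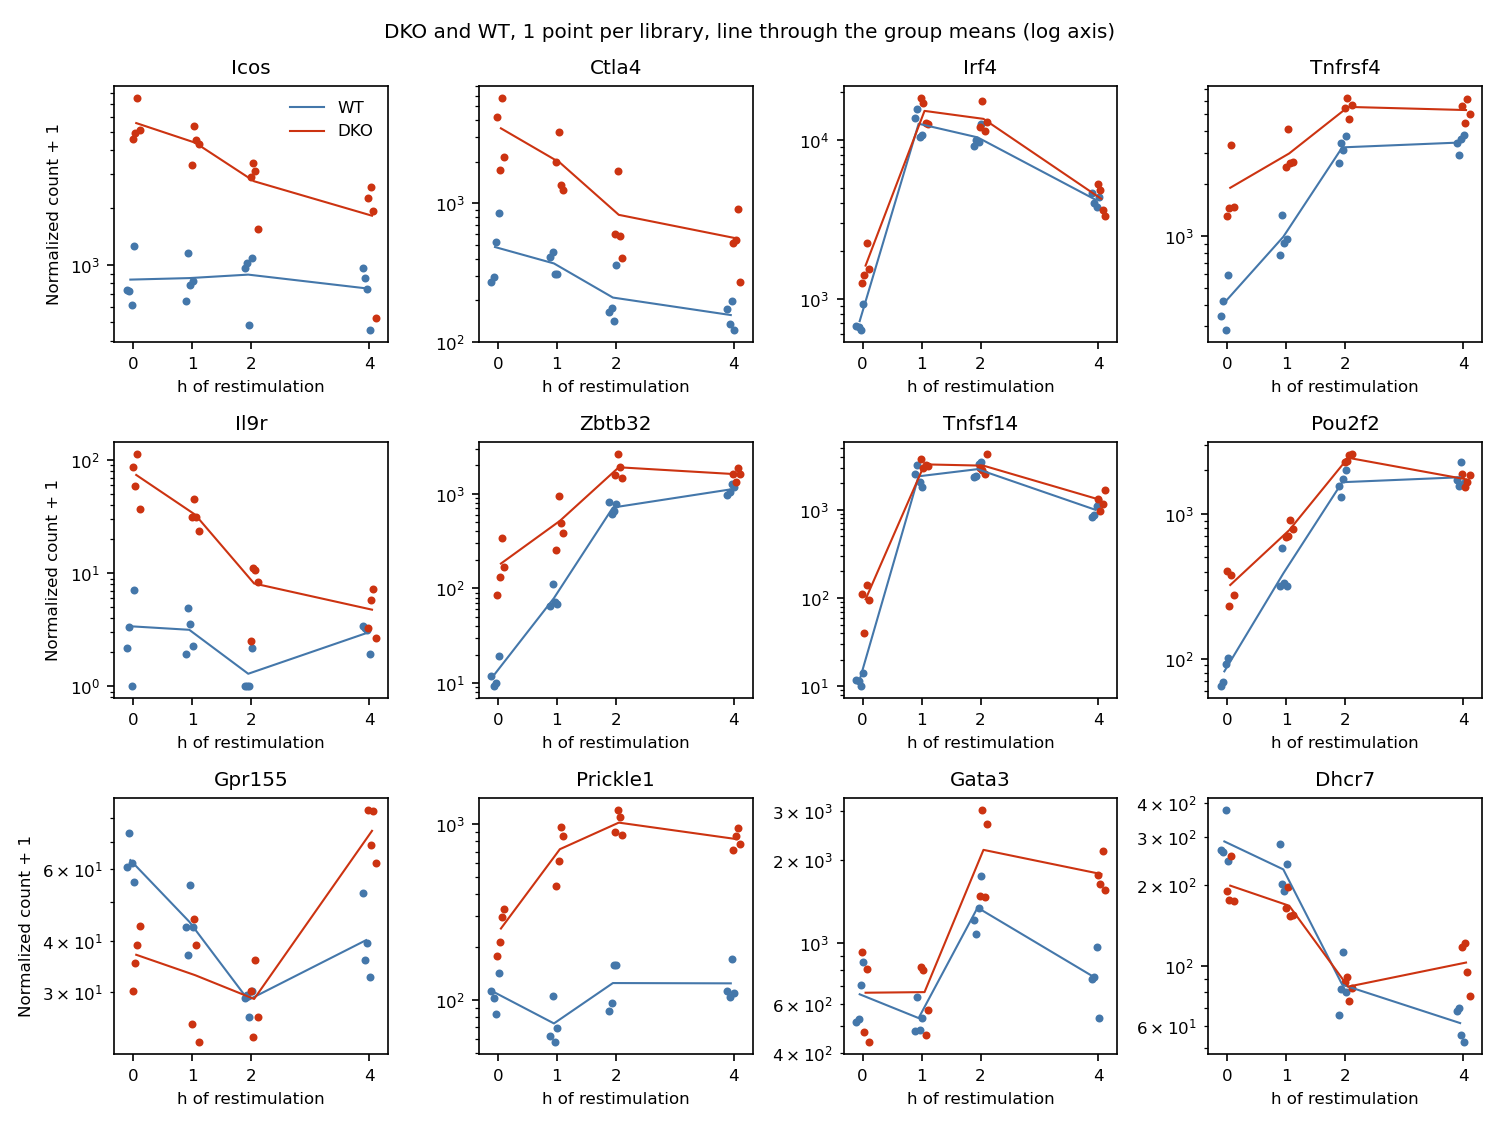
Normalised count + 1 (log axis) at 0, 1, 2 and 4 h in DKO (red) and WT cells (blue) for 12 genes, 1 point per library, with lines through the group means. Zbtb32, Tnfsf14 and Pou2f2 start higher in DKO cells and lie close to WT at 4 h, whereas Prickle1 and Gata3 lie above WT at 4 h.

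Across all genes tested, 5 were called in opposite directions with the difference also called. Beside Gpr155 these were Dennd5a (-1.01 ± 0.14, adjusted p = 1.9e-05), Zfp281 (-0.75 ± 0.16), Hsd17b7 and Cd2ap (0.44 ± 0.12). The rise of Cd2ap in DKO cells (0.22 ± 0.08, adjusted p = 0.019) turned to -0.06 without a call on the deposited scaling (adjusted p = 0.57). Its call of a difference was lost without any of 13 of the 16 libraries (adjusted p up to 0.14), and the fall of Zfp281 in DKO cells did not pass without the first or the third library at 0 h or the fourth at 4 h (adjusted p = 0.13, 0.06 and 0.055). The rise of Hsd17b7 in DKO cells (0.59 ± 0.19) did not pass on the deposited scaling (adjusted p = 0.16). Dennd5a, which encodes an exchange factor of membrane traffic, was at 2012, 1754, 2234 and 1896 at 0 h and 1339.9, 1342, 1154 and 1165 at 4 h in DKO libraries. In WT libraries it was at 1141, 1098, 1127 and 1399.9 and 1430.2, 1496, 1457 and 1698. Rc3h1 rose in WT cells, from 727 ± 97.1 to 1389.7 ± 75.01 (SD, n = 4), and its difference in change was -0.85 ± 0.14 (adjusted p = 0.00041).

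Cd22, a sialic acid receptor listed among B cell markers, also differed from WT (-3.74 ± 0.94, adjusted p = 0.039), at 28.1, 29.99, 47.7 and 27.6 at 0 h and 0, 1.01, 1.23 and 0.895 at 4 h in DKO libraries. That call was lost without any of 9 of the 16 libraries (adjusted p up to 0.14). The B cell markers summed to 1710 to 2488 at 0 h and 218 to 322 at 4 h, most of it Ighm (-3.05 ± 0.24). Their part in the other results was not tested. No NK or neutrophil marker had enough reads to be tested, and 2 of 4 myeloid markers fell.

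Between 2 and 4 h the response was still moving. In that comparison, which shares the 4 h libraries, 1399 genes were higher at 4 h (8.67%) and 2953 lower (18.3%). The balance turned with the scaling: without the 10 most abundant loci 4342 were higher and 1535 lower, and on upper-quartile scaling 2573 were higher and 2116 lower. Under all 5 scalings 1399 were higher and 1535 lower (9.51%). For this interval TMM gave the lowest median change over all genes (0.003, against 0.041 to 0.306 under the other scalings). The other scalings therefore put only the lower calls to the test. Of the genes that had risen by 4 h, 697 were still rising and 629 were lower than at 2 h, and of those that had fallen, 1736 were still falling and 213 were higher. P2ry1, a purinergic receptor gene, was at 4.43, 22.3, 3.61 and 15.8 at 2 h and 90.7, 93.8, 117 and 114 at 4 h. It rose in that interval (3.39 ± 0.39 from 2 to 4 h, adjusted p = 4.1e-10). Idi2 (2.92), Sox4 (2.65), Alpl (2.51) and Macrod1 (2.07) also rose late, as did Shisa3 (2.27), which overlaps Atp8a1. Egr3 was at 1494, 1406, 1200.0 and 2270.0 at 2 h and 72.6, 39.6, 111 and 82.4 at 4 h (-4.41 ± 0.42). Rrad, a small GTPase gene, fell in that interval (-3.51 ± 0.23) and yet stood above 0 h at 4 h (0.64 ± 0.23). Fgl2 (-3.58), Itga7 (-3.19) and Evi2a (-3.19, within Nf1) were other steep late falls.

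For this comparison 3688 genes were called higher and 3870 lower in the authors' deposited table. The limma calls shared 3669 of the higher (99.5% of theirs and 80.5% of limma's) and 3803 of the lower (98.3% and 87.7%).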

How the data were processed

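Total RNA of 64 libraries was sequenced (4 genotypes at 4 times, 4 libraries a group), of which the 8 DKO libraries at 0 and 4 h carry the comparison. Per the labels' protocols, libraries were made with the NuGEN Universal kit from RNA extracted in Trizol, and per the submitters' processing notes the build was GRCm38. Which aligner, counter, annotation and strand setting were used is not given in the sources used here, so reads of genes that overlap antisense to each other were not separable.

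Per the file headers, the authors deposited a table of 23134 genes that holds a list of 4 normalized counts for each group. Replicate numbers are absent from the lists. Each library is called by its group and its place in that group's list, and the place pairs nothing across groups. Every low value was a whole multiple of a step (100% within a tolerance of 0.1 read), which gave 5369873 to 11666566 reads per library (median 7720298), and no 2 libraries of a group differed by as little as sampling noise. The deposited group means, in the same signal unit of normalized counts, were used only as a check of the lists (largest deviation 0.049%). The authors' deposited p-values (false discovery rates) and log2 fold changes served only to count shared calls.

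Values were rescaled by TMM (trims of 30 and 5 percent) and tested as log2(value + 1) with limma 3.58.1 in R 4.3.3, with trended and robust moderation, 1 mean per group over all 64 libraries and 48 residual degrees of freedom. The design had foreseen a count model if the files held counts, and limma for normalized values. Genes were kept if 10 reads at the median depth (1.3 CPM, counts per 1000000 reads) were reached in 4 or more libraries and the sum over libraries was 15 reads or more, which left 16140. P-values were 2-sided with Benjamini-Hochberg adjustment over these genes, and a call needed an adjusted p under 0.05. Fold changes on this scale understate those of low genes. On simulated counts for this comparison over 16140 genes, 92, 44, 56 and 96% of genes changed by -2, -1, 1 and 2 (log2) were recovered, with 15 false calls. The simulation changed only 50 genes at each size, whereas 55.1% of genes were called in the data. It also gave all genes the same dispersion and scaled by library totals and not by TMM. Its rates therefore do not measure recovery in these data. Intervals and bounds (3 reads) cover counting error only.

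The members and gene lists were chosen with earlier results of these data known. Genes named were the 3 targeted genes, the 12 largest rises and falls without overlap between groups and with a mean deposited value of at least 50 in the higher group, up to 4 called members of each list in each direction with others for contrast, the 10 largest differences from WT in each direction, the 6 largest late rises and falls, and genes called in opposite directions. Predicted genes, pseudogenes and receptor segments were left out. Some genes that the rule names are not reported here. Promoters were RefSeq windows (GRCm38.p6) of 250 bases before the start. The planned 50 bases after it were left out, because they belong to the transcript. Motif letters were searched with Python 3.11.15. Alternatives were other pseudocounts, filters, scalings and tools, and leaving out libraries.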

Additional observations from a re-analysis of the deposited data

Results flagged for a closer look

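Among 412 sets of 4 DKO libraries of a named gene at 1 time, 24 held a library whose distance to the nearest of the other 3 was over 0.829 of the whole range. Chance marks about 1 in 20 such sets. The third library at 0 h accounted for 8 of them and the third at 4 h for 6. In the first library at 0 h the values were Ccr7 2386 (others 1414 to 1564), Pdzk1ip1 25.9 (others 51.1 to 56.2), Slc1a5 489 (others 408 to 422) and Tcf7 5044 (others 3221 to 3366). In the second library at 0 h it was Gimap7 276 (others 380.5 to 394). In the third library at 0 h the values were Ccl5 134 (others 52.97 to 64.3), Cd22 47.7 (others 27.6 to 29.99), Cd4 2642 (others 1967 to 2028), Csf2 9.55 (others 0 to 1.08), Havcr2 74.2 (others 37.8 to 42.5), Iigp1 535 (others 991 to 1015), Il15ra 107 (others 128 to 129.8) and Tnfrsf4 3348 (others 1305 to 1460.0). In the fourth library at 0 h it was Il3 1.08 (others 0). In the first library at 4 h it was Sidt1 440.2 (others 353 to 367). In the third library at 4 h the values were Ccnd2 13470.0 (others 10680.0 to 11110.0), Crabp2 2531 (others 739.8 to 1038), Egr1 1147 (others 707 to 733), Gzmb 5155 (others 1732 to 2005), Il4 320.0 (others 52.2 to 80.5) and Rel 2790.0 (others 2118 to 2198). In the fourth library at 4 h the values were Bcl3 53.3 (others 164 to 186), Cdkn1b 30.9 (others 58 to 61.3) and Lad1 2894 (others 1482 to 1666).

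For 31 of the genes named, the change from 0 to 4 h differed between DKO and WT cells by limma with Benjamini-Hochberg adjustment. The DKO change minus the WT change (log2) was above 0 for Acat2 1.32, Ccnj 1.5, Cd2ap 0.44, Dhcr7 1.27, Dock4 1.30, Gata3 1.29, Gpr155 1.67, Hsd17b7 1.05, Ppargc1b 1.43, Prickle1 1.55, Sidt1 1.33, Sqle 1.02 and Zdhhc14 1.38. It was below 0 for Cd22 -3.74, Dennd5a -1.01, Il9r -4.06, Irf4 -1.15, Lzts1 -2.20, Malt1 -1.29, Nr4a3 -1.55, Pdzk1ip1 -2.75, Phlda1 -2.22, Pkhd1l1 -2.42, Polr1c -1.0, Pou2f2 -2.01, RP24-312B12.1 -2.56, Rc3h1 -0.85, St6galnac2 -2.18, Tnfsf14 -2.55, Zbtb32 -3.21 and Zfp281 -0.75.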

How the results depend on the processing

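edgeR and DESeq2 were not run, because the deposited table stores lists of normalized values, and limma voom on the recovered whole reads was run in their place. Libraries left out carry the number of their place in the list. For the 206 named genes, 3863 of 3914 alternative values of the change from 0 to 4 h kept their direction and their side of the threshold, and 185 genes did so throughout. The call was lost in 36 values, and it was gained in 9. The other 6 values reversed. Cd2ap, which had been called, was at -0.06 on the deposited scaling. The others were of genes without a call, on the deposited scaling Cd5 (-0.08), Il2rg (-0.11), Rc3h1 (-0.18) and Zc3h12a (-0.10), and on upper-quartile scaling Rc3h1 (-0.04). In counts, the deposited scaling gave 4 h minus 0 h differences of -86.5 for Rc3h1, -24.6 for Zc3h12a and -232.6 for Rc3h2 (exact permutation p = 0.0286, adjusted p = 0.0857). The numbers of genes higher and lower at 4 h than at 0 h stayed within 1.5 times in every alternative run.

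The number of genes whose change differed from WT was less stable than that. Upward it was 8 on the deposited scaling, 30 on upper-quartile scaling, 37 on scaling without the 10 most abundant loci, 39 without a filter on low values and 40 with only the groups compared. Downward it was 837, 104, 111, 31 and 35 under the same settings, 32 with limma voom and 30 without both libraries that stand apart, a setting chosen after the data were seen. Leaving out 1 library gave 24 to 252 upward and 25 to 93 downward, with the highest of both without the fourth WT library at 0 h, and the lowest without the third WT library at 0 h (upward) and the third DKO library at 0 h (downward). From 2 to 4 h, 4342 genes were higher and 1535 lower on scaling without the 10 most abundant loci, and 2573 were higher and 2116 lower on upper-quartile scaling. For 34 named genes, 227 of 918 values of the difference lost the call and 4 gained it. The cause was not tested.

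List places do not pair the libraries (deviations at the same place in DKO cells at 0 and 4 h correlated at 0.246, 0.053, 0.311 and 0.041). With the place as a replicate block, 4554 genes were higher and 4329 lower at 4 h, 67 differences from WT were upward and 48 downward, and 1419 genes were higher and 2924 lower at 4 h than at 2 h. Depth limits the low genes most, since 1 read at 0 h was worth 1.06 to 1.11 counts.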

Other observations

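Several lists outside the account above held genes that changed between 0 and 4 h in DKO cells. Of 27 mRNA decay factors 9 rose and 5 fell, which is 51.9% called, near the 55.1% over all genes tested, and on the deposited scaling 5 rose and 9 fell. Zfp36l1, a binder of AU-rich elements, was at 483, 368, 509 and 378 at 0 h and 2064, 1638, 1987 and 2292 at 4 h (log2 change 2.20 ± 0.15, adjusted p = 4.3e-19). Its relatives Zfp36 (-1.83) and Zfp36l2 (-1.30) fell. Zc3h12c, which encodes Regnase-3, rose (2.46 ± 0.46), and Elavl1, the stabilising factor HuR, rose (0.90 ± 0.09). Signalling feedback genes were mixed, with 8 of 16 higher (5 on the deposited scaling) and 7 lower. That is 50% higher and 43.8% lower, against 28.2 and 26.9% over all genes tested. Socs3, the brake on STAT3 signalling, was at 315, 293, 445 and 429 at 0 h and 22.7, 16.4, 42.4 and 16.3 at 4 h (-3.95 ± 0.51), and Spry1, a brake on RAS and MAP kinase signalling, was at 30.2, 16.6, 26.5 and 29.7 at 0 h and 849, 670.1, 1049.6 and 1879 at 4 h (5.30 ± 0.43). Of 11 MAP kinase phosphatases 5 rose, with Dusp4 at 2.55, and 6 were without a call. That is 45.5% called, below the 55.1% over all genes tested.

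Cytotoxic granule genes rose in 7 of 12 cases (58.3%, against 28.2% of all genes tested). Gzmb, granzyme B, was at 701, 598, 1089.6 and 752 at 0 h and 2005, 1732, 5155 and 1883 at 4 h (1.65 ± 0.41, adjusted p = 0.0005), with the third library at 4 h far above the other 3. Of 8 Th2 genes 6 rose (75%) and 2 fell (25%, near the 26.9% of all genes tested). Among them were Il4 (3.87 ± 0.50) upward and Maf, which drives Il4, downward (-2.32 ± 0.65). Of 10 Treg genes 6 fell (60%, against 26.9% of all), led by Nt5e, the ectonucleotidase CD73 (-3.87 ± 0.60). Foxp3 itself was without a call, at 179, 184, 51.98 and 93.4 at 0 h and 91.9, 54.2, 51.1 and 32.6 at 4 h.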
